A study of Mus musculus with 12 samples.

Results

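The transcription factors Foxp3, Ikzf2, Tbx21, Eomes, Zbtb16, Maf, Rora, Bcl6, Prdm1 and Irf4 direct the effector, regulatory and innate-like fates of T cells and were followed here through thymus and NPM-ALK lymphoma. They were chosen by name, with earlier results of these data known, as 10 of 50600 genes counted. All 10 passed the low-count filter and were among the 16052 genes tested. RNA was sequenced from 12 mice, 3 per group. Ctrl were thymocytes of mice labelled DNMT1 fl/fl, in which Dnmt1 is flanked by loxP sites but no Cre is present, aged 20 to 25 wk. KO were thymocytes of DNMT1 fl/fl CD4-CRE mice aged 20 to 21 wk, in which Dnmt1, the maintenance DNA methyltransferase, is deleted in cells that have switched on Cd4. ALK were T cell lymphoma cells of NPM-ALK+ mice aged 22 to 31 wk, which carry the human NPM-ALK fusion kinase under a Cd4 promoter and enhancer, and whose labels give no Dnmt1 allele. ALKKO were thymocytes of NPM-ALK+, DNMT1 fl/fl CD4-CRE mice aged 19 to 25 wk. All mice were male except the second KO mouse (KO2).

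During thymic maturation most cells become conventional CD4 or CD8 T cells, while smaller streams branch off into regulatory T cells, natural killer T (NKT) cells and gamma-delta T cells that already carry effector programs. Each stream rests on a small set of lineage-determining transcription factors that open some programs and close others. Bcl6 and Prdm1 encode repressors that restrain each other's expression, and Bcl6 is in addition abundant in immature CD4+CD8+ thymocytes. NPM-ALK is the driver of a class of human anaplastic large cell lymphoma and signals, among other routes, through STAT3.

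Because STAT factors and CpG methylation both act at promoters, the windows from 250 bases before to 50 bases after the RefSeq gene starts were read for the factors (GRCm38.p6, sequences from RefSeq). The table held 9 windows for 7 of the 10 factors. The palindromic STAT-type motif TTCNNNGAA, which reads the same on both strands, occurred in 3 of the 9, against 8.30% of all 32851 windows. Both Bcl6 windows and the downstream Foxp3 window held it, and they are shown in the direction of transcription, with the motif in capitals. The first Bcl6 window is chr16:23988803-23989102 on the minus strand, with the motif beginning 118 bases before the start. The second Bcl6 window, for a start within the gene at chr16:23981234-23981533 (minus strand), held 3 matches, beginning 168, 122 and 88 bases before the start, a number that 11 of all windows reached. The Foxp3 window is chrX:7580233-7580532 on the plus strand, with 1 match beginning 139 bases before the start.
Bcl6, upstream start: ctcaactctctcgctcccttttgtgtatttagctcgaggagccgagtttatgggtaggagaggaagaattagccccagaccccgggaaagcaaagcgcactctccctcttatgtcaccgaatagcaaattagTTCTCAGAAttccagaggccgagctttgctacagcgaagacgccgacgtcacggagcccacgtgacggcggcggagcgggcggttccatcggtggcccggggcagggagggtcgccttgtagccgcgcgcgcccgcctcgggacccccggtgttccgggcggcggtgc
Bcl6, downstream start: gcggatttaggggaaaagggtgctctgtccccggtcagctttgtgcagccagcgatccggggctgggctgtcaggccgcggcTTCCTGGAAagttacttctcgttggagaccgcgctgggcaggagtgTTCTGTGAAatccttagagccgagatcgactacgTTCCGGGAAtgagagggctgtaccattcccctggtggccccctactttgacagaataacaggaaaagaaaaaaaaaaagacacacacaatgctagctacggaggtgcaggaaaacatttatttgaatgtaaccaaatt
Foxp3, downstream start: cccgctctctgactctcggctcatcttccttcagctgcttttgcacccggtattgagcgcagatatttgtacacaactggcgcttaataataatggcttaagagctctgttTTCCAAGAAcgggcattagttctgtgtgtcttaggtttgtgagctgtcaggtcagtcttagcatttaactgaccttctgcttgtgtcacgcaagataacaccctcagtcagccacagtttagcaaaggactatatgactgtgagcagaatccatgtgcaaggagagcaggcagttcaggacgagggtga
A match is a string of letters and not a measured binding site, and the windows of Eomes, Irf4, Prdm1, Rora and Tbx21 and the upstream window of Foxp3 did not hold these letters.

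The Prdm1 window (chr10:44458699-44458998, minus strand) is shown because Prdm1 was the only factor whose 3 ALKKO values all lay above the 3 Ctrl values. That is 1 of 10 factors, against 9.92% of all genes, so it is no more than the background share, and Prdm1 was not called. Its 20 CpG dinucleotides, the substrate of Dnmt1, are in capitals.
Prdm1: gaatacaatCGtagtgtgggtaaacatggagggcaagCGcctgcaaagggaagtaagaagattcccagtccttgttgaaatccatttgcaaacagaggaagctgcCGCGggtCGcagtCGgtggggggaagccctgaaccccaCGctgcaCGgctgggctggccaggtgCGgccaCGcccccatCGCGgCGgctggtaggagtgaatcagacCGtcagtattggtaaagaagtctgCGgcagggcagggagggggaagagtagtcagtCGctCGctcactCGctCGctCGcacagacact
The median window held 7 CpG dinucleotides, and the windows of the factors held 6 and 8 (Foxp3), 10 (Eomes), 11 (Irf4), 20 (Prdm1), 21 (Tbx21), 28 (Rora) and 14 and 31 (Bcl6). Methylation of these windows was not analysed here.

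Levels are given as CPM (counts scaled to the same library size) after TMM normalization, and a gene was called when the adjusted p of edgeR's quasi-likelihood test was under 0.05 and the absolute log2 fold change was above 1. The labels held for the targeted genes: Dnmt1 ranged from 399 to 486 CPM in Ctrl samples, from 206 to 243 CPM in KO samples and from 205 to 244 CPM in ALKKO samples, and Alk reached at most 0.431 CPM in Ctrl and was at 34.8 to 54.9 CPM in ALK and ALKKO. The KO2 library stood apart from the other 8 thymus libraries. Its summed CPM of 6 B-cell markers was 2193 against 53.2 to 100.4, that of 4 plasma-cell markers 4017 against 132.0 to 347.7 and that of 8 macrophage and dendritic cell markers 2330 against 436.7 to 660.8. Each of these markers was highest in KO2 among thymus libraries, whereas all 11 thymocyte markers counted and all 6 epithelial markers were lowest there, so each result resting on KO2 is given with and without it.

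In the control thymus, the 10 factors spanned a wide range of levels per kilobase of exon. Bcl6 led at 34.8 ± 3.77 CPM per kb (SD, n = 3), followed by Ikzf2, the Ikaros-family factor Helios, at 9.01 ± 0.646 CPM per kb. Irf4, which tunes effector responses to antigen receptor strength, followed at 4.61 ± 0.607 CPM per kb. Maf, which drives cytokine genes such as Il10 and Il4, was at 3.83 ± 0.0993 CPM per kb. These first 4 did not overlap with the next in order. Zbtb16 (2.25 ± 1.31 CPM per kb) overlapped in its spread with Tbx21 (2.17 ± 0.357 CPM per kb). Rora (1.45 ± 0.275 CPM per kb) overlapped with Foxp3 (1.12 ± 0.291 CPM per kb), and Foxp3 with Prdm1 (0.723 ± 0.122 CPM per kb), whereas Eomes was lowest at 0.316 ± 0.148 CPM per kb.

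In the ALK tumors that order broke down. Bcl6 still had the highest mean, at 3.82 ± 2.23 CPM per kb, but each of the first 6 factors overlapped with the next in order, down to Rora at 0.401 ± 0.208 CPM per kb. Zbtb16, Foxp3 and Eomes formed the bottom, at 0.0963, 0.0373 and 0.0186 CPM per kb. In ALKKO the order began as in Ctrl, with Bcl6 at 30.3 ± 2.15 and Ikzf2 at 9.39 ± 0.526 CPM per kb, and Prdm1 stood sixth at 1.71 ± 0.401 CPM per kb. In KO every factor overlapped with the next in order, with KO2 at an end of each range.

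**Figure D1:**
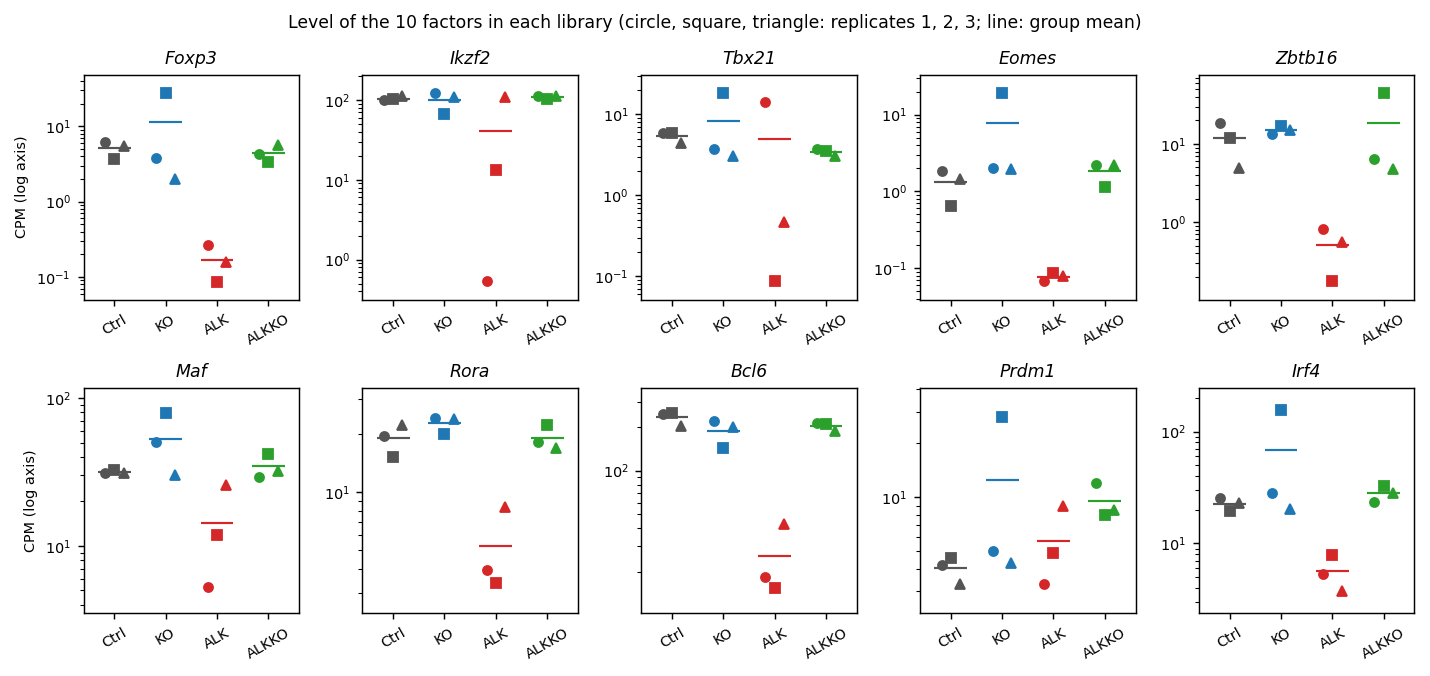
CPM of each factor (log axis, a separate scale per panel) in the 12 libraries by group, with circles, squares and triangles for replicates 1, 2 and 3 and a line at each group mean. For Foxp3, Eomes, Zbtb16, Maf, Rora, Bcl6 and Irf4 the 3 ALK points lie below all 9 thymus points, and the KO square (KO2) is the top point for Foxp3, Tbx21, Eomes, Maf, Prdm1 and Irf4.

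The comparison of ALK with Ctrl asks what distinguishes the transformed T cells from thymocytes. Of the 10 factors, 6 were called, all lower in the tumors: Foxp3, Eomes, Zbtb16, Rora, Bcl6 and Irf4. Over all genes tested, 20.4% were called and 12% were called lower. The median log2 fold change of the 10 was -1.92, against 0.05 over all genes. For 7 of the 10, Maf included, the 3 tumors lay below the 3 Ctrl samples, which was so for 25.1% of all genes, and the same 7 lay below all 9 thymus samples, which was so for 15.8%. In bulk RNA a smaller share of cells of a type and less RNA per cell cannot be told apart, and here the transgene and transformation cannot be told apart either, since every ALK sample was a tumor.

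Bcl6, the repressor that specifies follicular helper T cells, was the most abundant factor in thymus. It was at 246, 250 and 204 CPM in the 3 Ctrl samples and at 18.5, 15.5 and 42.7 CPM in the 3 ALK samples. The groups were far apart, with the highest tumor well under the lowest of all 9 thymus samples, KO2 at 144 CPM. The log2 fold change was -3.19 (SE 0.351, adjusted p = 0.000417), and it kept its call under all 20 alternatives. The genes whose levels followed Bcl6 most closely over the 12 libraries were Cd4 (Pearson r = 0.997), Rasgrp1 (r = 0.995) and Cd6 (r = 0.992), all expressed in thymocytes. Cd4 itself ranged from 1285 to 1407 CPM in Ctrl but only from 27.5 to 116 CPM in the tumors. These 12 points share the split between 9 thymus and 3 tumor libraries.

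Foxp3, the factor that specifies regulatory T cells, was at 6.23, 3.64 and 5.49 CPM in Ctrl and at 0.268, 0.0872 and 0.156 CPM in ALK. Its transcripts were almost absent from the tumors, with 7 reads over the 3 tumor libraries against 288 over the 3 Ctrl libraries. The pooled level was 28.7-fold lower in ALK, with an exact 95% interval of 13.7 to 72.0 that covers counting error only. Every exact interval below likewise leaves out the spread between mice. The fitted log2 fold change was -4.81 (SE 1.02, adjusted p = 0.0068). Part of the Foxp3 exons is shared on the same strand with Flicr, a non-coding gene, and reads there may have been counted for neither.

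Ikzf2, which marks many thymic regulatory T cells and strongly selected thymocytes, differed widely among the tumors. Its 3 Ctrl samples were at 99.0, 102 and 113 CPM, and the 3 tumors were at 0.537, 13.2 and 109 CPM. The third tumor lay within the Ctrl range, the first was nearly without Ikzf2 reads, and the log2 fold change of -1.35 (SE 1.06, adjusted p = 0.361) was not called. Without the third tumor it was -3.95 (adjusted p = 0.0108).

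Tbx21 and Eomes encode the related T-box factors of type 1, cytotoxic and memory T cells. Eomes was at 1.85, 0.642 and 1.45 CPM in Ctrl, and in each of the 3 tumors a single read was counted. From 3 reads against 74, the pooled level was 17.2-fold lower in ALK (exact 95% interval 5.66 to 85.3). The fitted log2 fold change was -3.96 (SE 1.1, adjusted p = 0.0224). This call was lost without Ctrl replicate 1 or 3 or without any 1 of the tumors, at adjusted p = 0.0515 to 0.0631. Without KO2, which enters the shared error, the log2 fold change was -3.99 (SE 0.605, adjusted p = 0.00137).

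Tbx21 was at 5.91, 5.89 and 4.36 CPM in Ctrl and at 14.3, 0.0872 and 0.469 CPM in ALK. The first tumor exceeded all Ctrl samples while the other two were far under them, so the groups overlapped in both directions. The log2 fold change was -0.11 (SE 1.24, adjusted p = 0.955). Without the first tumor it was -4.23 (adjusted p = 0.0111), and without the second or the third it was 0.43 or 0.42.

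Zbtb16 encodes PLZF, the factor of NKT and other innate-like T cells. It was at 18.8, 11.99 and 4.90 CPM in Ctrl and at 0.805, 0.174 and 0.547 CPM in ALK. The Ctrl samples varied among themselves, yet the lowest still lay above every tumor. The log2 fold change was -4.50 (SE 0.973, adjusted p = 0.00751), and pooled counts of 21 against 671 gave a 22.3-fold lower level (exact 95% interval 14.4 to 36.2, counting error only).

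Rora, which encodes the nuclear receptor RORalpha of type 17 and innate lymphoid programs, was at 19.4, 15.1 and 22.2 CPM in Ctrl and at 3.96, 3.40 and 8.36 CPM in ALK. Every tumor lay below every Ctrl sample, and the log2 fold change was -1.85 (SE 0.338, adjusted p = 0.00335). Maf was at 31.2, 32.5 and 30.9 CPM in Ctrl and at 5.23, 11.9 and 26.0 CPM in ALK. All 3 tumors were under the narrow Ctrl range, the third only slightly, and the log2 fold change of -1.14 (SE 0.497, adjusted p = 0.108) was not called. Without the third tumor it was -1.89 (adjusted p = 0.0114).

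Irf4 was at 25.3, 19.4 and 23.0 CPM in Ctrl and at 5.30, 7.93 and 3.75 CPM in ALK. The groups did not overlap, and the log2 fold change was -1.998 (SE 0.666, adjusted p = 0.045). This call was at the edge, since leaving out any 1 of the Ctrl, ALK or ALKKO libraries took the adjusted p to between 0.0596 and 0.107. Without KO2, whose spread enters the shared error, the log2 fold change was -2.02 (SE 0.292, adjusted p = 0.00111). Prdm1, which encodes Blimp-1, a repressor that drives terminal effector and plasma cell differentiation, was at 4.22, 4.60 and 3.28 CPM in Ctrl and at 3.29, 4.88 and 8.98 CPM in ALK. It was the one factor with a positive fold change, 0.50 (SE 0.675, adjusted p = 0.606), and the groups overlapped.

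**Figure D2:**
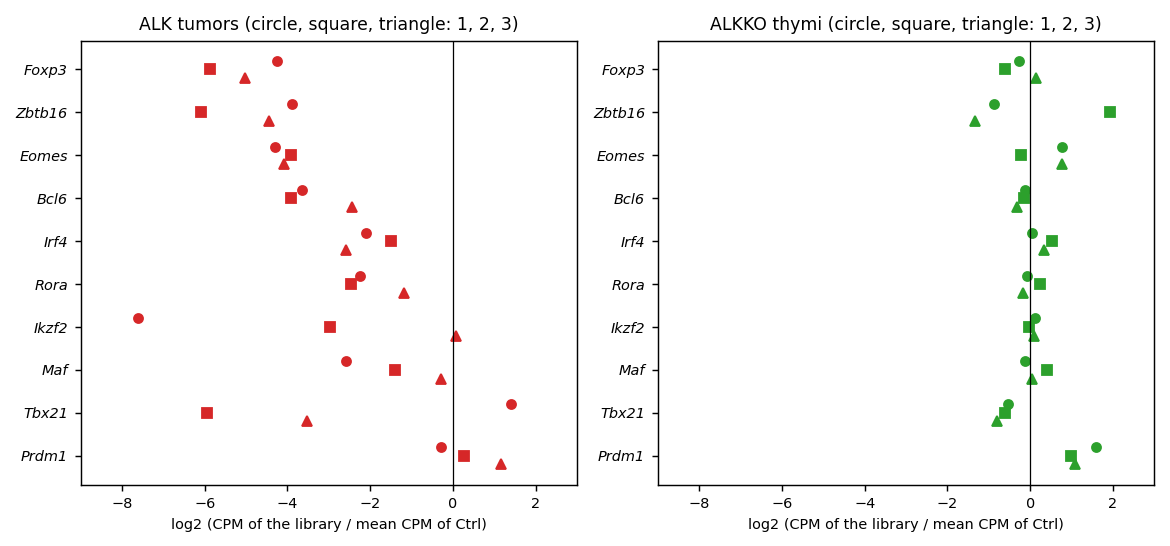
The log2 ratio of each library's CPM to the mean CPM of Ctrl, for the 3 ALK tumors on the left and the 3 ALKKO thymi on the right, with circles, squares and triangles for replicates 1, 2 and 3. The tumors lie close together for Eomes but far apart for Ikzf2 and Tbx21, and the 3 ALKKO points lie to the right of 0 for Prdm1, to the left for Tbx21 and widely on both sides for Zbtb16.

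The other T-cell genes linked to these programs were counted in fixed lists, which were chosen with earlier results of these data known. Over all genes tested, 12% were called lower and 8.41% called higher in ALK against Ctrl, and each list count below stands against these shares. Of 15 regulatory T-cell genes, 7 fell and 2 rose. Tigit, an inhibitory receptor, was at 2.21 CPM or more in each Ctrl sample and at most 0.156 CPM in each tumor (3 reads against 147, 34.1-fold lower, exact 95% interval 11.5 to 167, adjusted p = 0.00182). Tnfrsf9, the costimulatory receptor 4-1BB, fell likewise (log2 fold change -3.65, SE 0.407, adjusted p = 0.00042). Against that direction Il10, an anti-inflammatory cytokine, was at 24.7, 26.1 and 0.703 CPM in the tumors and at most 0.58 CPM in Ctrl (log2 fold change 5.37, SE 1.21, adjusted p = 0.00924). Nrp1, a surface receptor of thymic regulatory T cells, was also called higher (log2 fold change 1.86, SE 0.528, adjusted p = 0.0245). It was at 60.6, 323 and 128 CPM in the tumors and at 30.9, 36.9 and 73.4 CPM in Ctrl, so the groups overlapped.

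Of 10 type 1 effector genes tested, 4 fell and 1 rose, against 12% and 8.41% of all genes. The chemokine Ccl5 (log2 fold change -5.23, SE 0.938, adjusted p = 0.00318) and the cytokine receptor chain Il2rb (log2 fold change -4.33, SE 0.68, adjusted p = 0.00181) fell most. Il12rb2, a chain of the interleukin-12 receptor, was at most 23.0 CPM in Ctrl and rose to 59.1, 68.9 and 124 CPM in the tumors (log2 fold change 2.05, SE 0.279, adjusted p = 0.000978). Of 11 genes of NKT cells and PLZF, 5 fell and 0 rose, with Klrb1c, which encodes NK1.1 (log2 fold change -4.85, adjusted p = 0.00127), and the costimulator Icos (log2 fold change -3.85, adjusted p = 0.00323) in the lead.

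Of 9 type 17 and gamma-delta genes, 6 fell and 0 rose, among them Il23r, the interleukin-23 receptor, with 1 read over the 3 tumors and 68 over Ctrl, 47.4-fold lower (exact 95% interval 8.22 to 1899, adjusted p = 0.00483), and the kinase Blk (log2 fold change -5.04, adjusted p = 0.00611). Of 9 follicular helper genes, 2 fell and 0 rose, against 12% and 8.41% of all genes, and 2 genes are few to set beside a share. They were Pdcd1, the PD-1 receptor, down from at least 22.8 CPM in each Ctrl sample to at most 3.20 CPM in each tumor (log2 fold change -4.31, adjusted p = 0.00373), and the cytokine Il21, which had 0 CPM in each tumor (adjusted p = 0.00366). Among 9 partners of Irf4 and Prdm1 in effector differentiation, 3 fell and 0 rose, namely the cytotoxic protease Gzmb (2 reads against 86, exact 95% interval of the ratio 8.05 to 251, adjusted p = 0.0184), Batf3 (log2 fold change -2.85, adjusted p = 0.0133) and Xbp1. Among the family relatives of the factors, Irf7, Zbtb7b and Maff fell and Foxp4 rose. Zbtb7b, the CD4-lineage factor ThPOK, fell (log2 fold change -3.07, SE 0.498, adjusted p = 0.00211) as did the interferon factor Irf7 (log2 fold change -3.17, SE 0.769, adjusted p = 0.0126), while Foxp4, at most 129 CPM in Ctrl, reached 151 to 421 CPM in the tumors. Without KO2 the follicular helper list had 4 genes called lower and the family list 7. With 1 library left out the called genes numbered 2 to 4 in the follicular helper list, 4 to 8 in the family list, 6 to 10 in the regulatory list, 4 to 7 in the type 1 list, 3 to 6 in the NKT list, 4 to 7 in the type 17 list and 3 to 5 among the partners.

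**Figure D3:**
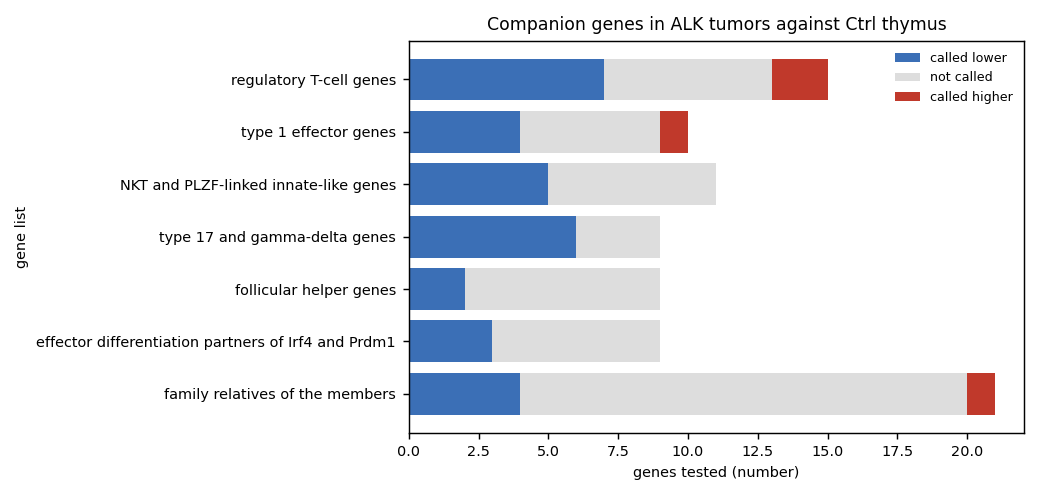
Number of genes called lower, not called and called higher in ALK against Ctrl for each of the 7 lists of companion genes. The regulatory list has the most genes called lower (7 of 15), the type 17 and gamma-delta list has the largest share called lower (6 of 9), and called-higher genes appear in the regulatory, type 1 and family lists.

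Markers of thymocytes and of other cell types were read beside these lists, and they did not all move in the same direction. The shares of all genes to set beside their counts are again 12% called lower and 8.41% called higher. The summed CPM of the thymocyte markers was 12588 to 14916 in Ctrl and 4565 to 5699 in ALK, with 5 of 11 markers called lower. That of the epithelial markers was 587 to 673 in Ctrl and 7.58 to 156 in ALK (4 of 6 called lower), that of the B-cell markers 53.5 to 96.1 and 5.84 to 16.3 (1 of 6, and 5 without KO2), and that of the plasma-cell markers 132.0 to 294 and 30.8 to 59.8 (2 of 4, with Sdc1 called higher). Fibroblast and endothelial markers summed to at most 356 CPM in Ctrl samples but to at least 835 CPM in each tumor, with the collagens Col1a1 and Col3a1 called higher. Of the remaining lists, 2 of 8 macrophage and dendritic markers and 3 of 5 natural killer and innate lymphoid markers were called lower, Gzma was called higher, and 0 of 3 erythroid markers were called. No detected marker of these lists was at 0 in all 3 tumors. The part of other cell types in the factors' differences was not tested.

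ALK was next compared with ALKKO, which sets tumors against thymocytes that carry the transgene but have lost Dnmt1. The 6 factors called against Ctrl were called here too, all lower in ALK, against 12.6% of all genes called lower. The log2 fold changes were -4.60 (SE 1.01, adjusted p = 0.0086) for Foxp3, -4.47 (SE 1.1, adjusted p = 0.0141) for Eomes and -5.16 (SE 0.996, adjusted p = 0.00475) for Zbtb16. Those of Bcl6, Irf4 and Rora were -2.99, -2.31 and -1.86. The same 3 tumors enter both comparisons, so the second is not independent of the first. Ikzf2 (-1.41), Maf (-1.26), Prdm1 (-0.74) and Tbx21 (0.54) were not called. The call of Irf4 was lost without ALK1, ALK3 or any 1 of the ALKKO libraries, at adjusted p = 0.0501 to 0.069. Without KO2 the log2 fold change of Irf4 was -2.34 (SE 0.295, adjusted p = 0.000581). Without ALK3, Ikzf2 (-4.01) and Maf (-2.02) were called, and without ALK1, Tbx21 (-3.57) was.

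**Figure D4:**
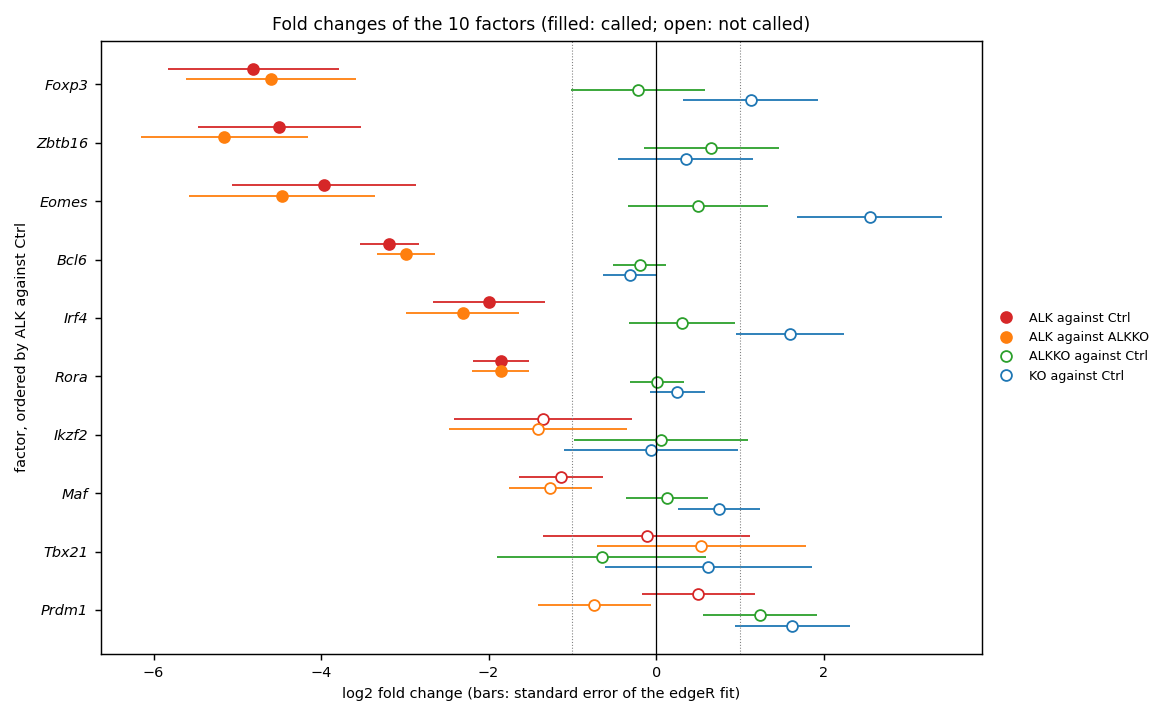
Log2 fold change of each factor in 4 comparisons, with bars for the standard error, filled circles for called values and open circles for the rest. Foxp3, Zbtb16, Eomes, Bcl6, Irf4 and Rora are filled and left of 0 in both ALK comparisons, and all circles of KO and ALKKO against Ctrl are open.

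KO against Ctrl asks what the loss of Dnmt1 changes in the thymus without the transgene. Ctrl mice had no Cre, so Cre itself is part of this difference and of that between ALKKO and Ctrl. None of the 10 factors was called by edgeR or DESeq2, as against 0.0187% of all genes called by edgeR. DESeq2 gave Eomes and Tbx21 no adjusted p here, so it could not call them. For 3 of them there was an unadjusted p under 0.05 (5.52% of all genes), namely Eomes, Irf4 and Prdm1, all higher in KO. Those values rested on KO2.

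Irf4 was at 28.1, 157 and 20.3 CPM in KO1, KO2 and KO3, and its log2 fold change of 1.60 (SE 0.647, adjusted p = 0.864) became 0.10 without KO2. Eomes was at 2.01, 19.4 and 1.95 CPM in the 3 KO samples, a log2 fold change of 2.55 (adjusted p = 0.864) that was 0.59 without KO2. Prdm1 was at 5.03, 28.2 and 4.31 CPM, giving 1.63 (adjusted p = 0.864) with KO2 and 0.21 without it. For Irf4 and Prdm1 one of the other KO samples lay within the Ctrl range and the other just above it. Eomes was above the highest Ctrl sample (1.85 CPM) in all 3 KO samples, the only factor of the 10 whose KO and Ctrl samples did not overlap, against 12.4% of all genes.

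For Foxp3, at 3.76, 27.9 and 2.02 CPM in KO, the direction changed, from a log2 fold change of 1.13 to -0.82 without KO2. Tbx21, at 3.76, 18.2 and 3.03 CPM, changed in the same way from 0.62 to -0.66. Maf was at 50.5, 78.9 and 30.02 CPM, again highest in KO2. KO2 thus had the highest value among the thymus libraries for 6 of the 10 factors and the lowest for Bcl6 (144 CPM) and Ikzf2 (67.3 CPM), beside the B-cell, plasma-cell and thymocyte marker sums given above, whose part was not tested. Rora (24.0, 20.0 and 23.7 CPM) and Zbtb16 (13.3, 17.2 and 15.1 CPM) did not stand out in KO2.

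**Figure D5:**
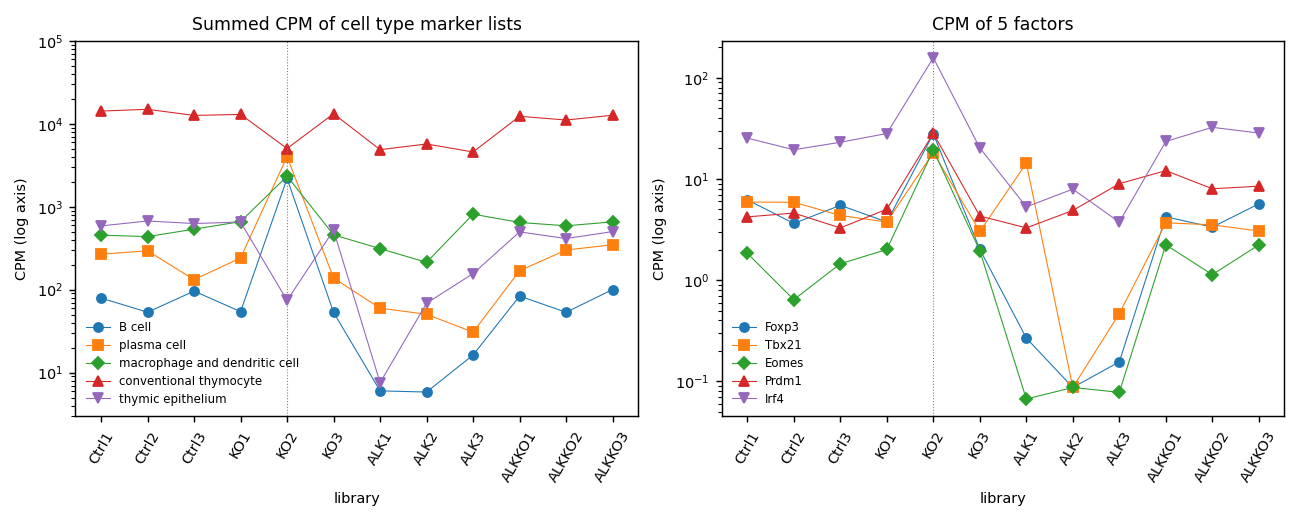
Left, summed CPM of 5 cell type marker lists, and right, CPM of 5 factors, in the 12 libraries (log axes, lines join libraries for reading only, the dotted line marks KO2). At KO2 the B-cell, plasma-cell and macrophage and dendritic lines peak, the thymocyte and epithelial lines dip below the other thymus libraries, and Foxp3, Tbx21, Eomes, Prdm1 and Irf4 peak.

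ALKKO against Ctrl asks how the transgene and the deletion together change thymocytes that have not formed a tumor. Of the 10 factors, 0 were called by edgeR or DESeq2 and 0 had an unadjusted p under 0.05, against 0.181% and 3.18% of all genes by edgeR. DESeq2 gave Tbx21 no adjusted p here, so it could not call that factor. Prdm1 was at 12.1, 8.002 and 8.48 CPM in ALKKO, all above the 3.28 to 4.60 CPM of Ctrl. Its log2 fold change was 1.24 (SE 0.679, adjusted p = 0.9998), and without KO2, whose spread enters the shared error, the unadjusted p was 0.0108 and the adjusted p 0.711. Tbx21 was at 3.69, 3.52 and 3.06 CPM in ALKKO, all below Ctrl, with a log2 fold change of -0.65 (SE 1.25). These 2 of 10 factors did not overlap between the groups, against 17.5% of all genes, a share near the background.

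The remaining factors of ALKKO lay close to Ctrl. Foxp3 was at 4.23, 3.34 and 5.68 CPM, Bcl6 at 213, 210 and 187 CPM and Ikzf2 at 114, 102 and 111 CPM. Rora had a log2 fold change of 0.01 and a standard error of 0.324. Zbtb16 was uneven, at 6.47, 45.1 and 4.72 CPM, so that its log2 fold change of 0.66 (SE 0.805) was -1.09 without the second ALKKO sample. No gene of the 7 companion lists was called in this comparison.

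ALKKO against KO isolates the transgene in thymocytes without Dnmt1. Again 0 of the 10 factors were called by either tool (0.00623% of all genes by edgeR), though DESeq2 gave Eomes and Tbx21 no adjusted p. In edgeR Eomes alone had an unadjusted p under 0.05 (2.69% of all genes), with a log2 fold change of -2.05 that was -0.09 without KO2. Foxp3 (-1.34), Irf4 (-1.29) and Tbx21 (-1.28) had negative log2 fold changes too, which without KO2 were 0.61, 0.22 and 0.0133. Prdm1 had a log2 fold change of -0.39 (SE 0.668), which became 1.03 (unadjusted p = 0.0457, adjusted p = 1) without KO2. When the 6 samples of KO and ALKKO were pooled against Ctrl, 0 factors were called by either tool (0.0561% of all genes by edgeR). For DESeq2 this covers only factors with an adjusted p. Prdm1 alone had an unadjusted p under 0.05 (4.34% of all genes), at 1.43 on the log2 scale (SE 0.62, adjusted p = 0.988), and at 0.73 with KO2 left out. Foxp3 was at 0.46 in this pooled comparison and at -0.52 without KO2, and neither value was called.

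Lastly, the interaction asked whether the difference that goes with the transgene depends on Dnmt1, as ALKKO against KO minus ALK against Ctrl, on the log2 scale and called by the adjusted p alone. The factors called were Bcl6 at 3.30 (SE 0.468, adjusted p = 0.00427) and Zbtb16 at 4.80 (SE 1.24, adjusted p = 0.0372), 2 of the 10, while 10.3% of all genes were called. Both were lower in ALK than in Ctrl and did not pass the test between ALKKO and KO. Rora (1.60, adjusted p = 0.0523) and Foxp3 (3.47, adjusted p = 0.107) were not called. Without KO2, Foxp3 (5.44, adjusted p = 0.00243), Eomes (3.90, adjusted p = 0.016) and Irf4 (2.24, adjusted p = 0.0127) were called beside Bcl6, and Zbtb16 was not (adjusted p = 0.0524). The call of Zbtb16 was also lost without Ctrl1, Ctrl2, KO1, KO3, ALK2 or ALKKO2 (adjusted p up to 0.0946), and without ALK3 Rora (2.11, adjusted p = 0.00489) and Ikzf2 (4.07, adjusted p = 0.036) were called as well. ALK samples were lymphoma and ALKKO samples thymocytes, so the deletion and the absence of a tumor cannot be told apart in this test.

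The genes with profiles most like those of the factors, by Pearson r of log2(CPM + 1) over the 12 libraries, are given as a description. For Foxp3 they were Pglyrp1 (r = 0.984), Spib (0.983) and Oas1a (0.982), and for Irf4 Tmem168 (0.992), Phf11d (0.978) and Cacna1s (0.977). For Eomes they were Dclk1 (0.984), 1810006J02Rik (0.979) and Havcr1 (0.979). All 3 factors share their peak in KO2 and their low in the tumors. Ikzf2 went with Edaradd (0.974), Stk4 (0.971) and Agap2 (0.969), and Tbx21 with Hip1r (0.973), BC051142 (0.963) and Sh3gl3 (0.959). Zbtb16 went with Klf9 (0.957), Tcim (0.933) and Slc27a4 (0.931). Rora followed Mgl2 (0.986) and Ephx1 (0.982), Maf followed Itm2b (0.984), Stk24 (0.978) and Zfp36l1 (0.974), and Prdm1 followed Mfsd1 (0.947), Ifitm1 (0.943) and Ppfia4 (0.934).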

How the data were processed

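Stranded libraries of poly(A) RNA were read from one end. The authors aligned trimmed reads to mm10 by STAR, and what they deposited are raw HTSeq counts for each gene. Versions (other than Picard 2.19.2), annotation release and strand setting are not given in the sources used here, so reads of overlapping genes are uncertain. Groups, ages and sexes came from the labels. Each library held 12473857 to 18864327 gene counts, and 3 counts equal 0.159 to 0.24 CPM. Symbols came from GENCODE M21.

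The test was edgeR 4.0.16 under R 4.3.3 (filterByExpr, TMM, 1 term per group over 12 libraries, robust glmQLFit, glmQLFTest) with Benjamini-Hochberg adjustment over 16052 genes, and the code was tested on simulated data. Alternatives were DESeq2 1.42.0, its size factors, other filters, a replicate block, sex, age, only the groups compared, and each library left out. The counts of the companion lists under these alternatives were an addition made once the data had been seen.

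The 10 factors and all lists were chosen with earlier results of these data known. Named genes are the 10 factors, Dnmt1, Alk, per list the 2 called rises and 2 called falls of largest size in ALK against Ctrl (mean of at least 1 CPM) and the 3 genes nearest to each factor by Pearson r. Some genes of this rule are not reported here. Others were named after their values were seen. Nothing in the labels states litters or batches. The p-values treat the mice as independent, and a litter or batch shared within a group could not be told apart from the group.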

Additional observations from a re-analysis of the deposited data

Results flagged for a closer look

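The factors Bcl6 and Zbtb16 were marked because the difference between transgenic and non-transgenic samples was itself different with and without the Dnmt1 deletion. ALK samples were lymphoma and ALKKO samples thymocytes, so the deletion and the absence of a tumor cannot be told apart here either. For Bcl6 the difference between ALKKO against KO and ALK against Ctrl was 3.30 on the log2 scale (SE 0.468, adjusted p = 0.00427), and it passed the threshold under every alternative run. For Zbtb16 it was 4.80 (SE 1.24, adjusted p = 0.0372), and it did not pass with sex as a covariate, with the replicate number as a block (adjusted p = 0.0789), or without Ctrl1, Ctrl2, any 1 of the KO libraries, ALK2 or ALKKO2, at adjusted p = 0.0524 to 0.0946. Groups of 3 mice were too small for a test of outlying samples.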

How the results depend on the processing

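With 12 libraries the fits could separate large differences only, and factors with few reads in the tumors (Foxp3, Eomes, Zbtb16) rest on counts near the detection limit. Foxp3, Zbtb16, Rora and Bcl6 kept their calls in ALK against Ctrl and in ALK against ALKKO under every alternative in which they were tested. Requiring 10 or more counts per library kept 5 of the 10 factors (Maf, Rora, Bcl6, Prdm1 and Irf4), since the others fell under 10 counts in at least 1 library, and of these 3 were called in each of these comparisons and 1 in the interaction. With 1 library left out, the number called was 4 to 6 in ALK against Ctrl, 5 to 7 in ALK against ALKKO and 1 to 4 in the interaction. The interaction called 4 factors with DESeq2's Wald test and 4 with sex as a covariate, which fits KO2, the only female, exactly. DESeq2 gave no adjusted p for Eomes, Ikzf2 and Tbx21 in the ALK comparisons, or for Eomes and Ikzf2 in the interaction. The same held for Eomes and Tbx21 in KO against Ctrl and ALKKO against KO, and for Tbx21 in ALKKO against Ctrl.

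Of the values given here, these changed sign, and none of them was called with all libraries in the fit: Tbx21 in ALK against Ctrl was 0.15 with age as a covariate, and ranged from -4.23 (without ALK1) to 0.43 (without ALK2) with 1 library left out. In ALK against ALKKO it ranged from -3.57 (without ALK1, then called) to 1.08, and was -0.21 with the replicate block. With sex as a covariate, Foxp3 was -0.82 and Tbx21 -0.66 in KO against Ctrl, and Prdm1 was 1.03, Foxp3 0.61, Irf4 0.22 and Tbx21 0.0121 in ALKKO against KO, and Foxp3 was -0.52 in the pooled comparison. With 1 library left out, Foxp3 ranged from -0.82 (without KO2) to 1.63 and Tbx21 from -0.66 (without KO2) to 1.02 in KO against Ctrl, Prdm1 from -0.80 to 1.03, Foxp3 from -1.84 to 0.61, Irf4 from -1.72 to 0.22 and Tbx21 from -1.68 to 0.0133 in ALKKO against KO (the upper ends without KO2), Foxp3 from -0.52 (without KO2) to 0.71 in the pooled comparison, and Zbtb16 from -1.09 (without ALKKO2) to 1.15 in ALKKO against Ctrl. The cause was not tested.

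Same-numbered samples of different groups had correlations of their deviations of -0.154 to 0.455 (median -0.029), with 5 of 18 pairs above 0.1. Other-numbered samples had -0.469 to 0.276 (median 0.013), with 6 of 36 pairs above 0.1. The same-numbered pairs had the lower median but the highest value, so whether replicate numbers pair the samples was not settled. With the replicate block, 6 factors were called in ALK against Ctrl, 6 in ALK against ALKKO and 1, Bcl6, in the interaction, where Zbtb16 had an adjusted p of 0.0789. Of 300 list counts under the alternatives, 237 stayed within 1.5 times the main count.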
